A study of Homo sapiens with 6 samples.

Results

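The oxidative phosphorylation genes of the human hepatocellular carcinoma line Huh-7, a long-established culture, were compared between cells that stably overexpressed RAC3, a small GTPase, and their negative controls. Members were taken by symbol: the mitochondrial MT-ND, MT-CO, MT-ATP and MT-CY genes, the nuclear NDUFA, NDUFB, NDUFC, NDUFS, NDUFV, UQCR, ATP5 and COX4 to COX8 genes, SDHA, SDHB, SDHC, SDHD and CYC1. The rule used names and no measured value. It found 112 of the 20332 genes in the table, of which 13 are encoded in mitochondrial DNA and 99 in the nucleus. The nuclear genes comprised 85 subunit genes, 8 complex I assembly factors of the NDUFAF series and 6 other genes whose symbols match: the ATP synthase inhibitor ATP5IF1, the supercomplex factor COX7A2L, the readthrough genes ATP5MF-PTCD1 and NDUFC2-KCTD14, and the gene copies UQCRHL and ATP5MGL.

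Both groups held 3 RNA samples, described in the study's methods as independent. The negative control (NC) samples carry the genotype label WT, and the RAC3 samples came from cells transduced with a RAC3 lentivirus. How many clones a line held and what the control cells received are not given in the sources used here. The genotype labels of RAC3 samples 2 and 3 name RAC4 and RAC5, whereas their titles name RAC3, and these samples were kept in the RAC3 group. p-values measure the spread between these samples, which may be in part technical, and in bulk RNA fewer cells of a type and less RNA per cell cannot be told apart.

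Polyadenylated RNA was sequenced, and between 13855762 and 18199888 counts per sample fell on genes. Counts were scaled to normalized CPM, a count scaled to a common library size, with edgeR's TMM factors, which ran from 0.972 to 0.986 in the NC samples and from 1.02 to 1.03 in the RAC3 samples. RAC3 itself had 35.6, 31.3 and 32.8 normalized CPM in NC and 232.5, 239.5 and 225.3 in RAC3 samples, so all 3 RAC3 samples carried the overexpression (log2 fold change 2.81, adjusted p = 9.6e-18 by the quasi-likelihood F test of edgeR, which gave every adjusted p below after Benjamini-Hochberg correction over all genes tested). All 10 hepatocyte or hepatoma markers were present, with summed levels of 6547 to 6638 normalized CPM in NC and 5961 to 6521 in RAC3 samples. Of the markers of other cell types, 4 of 5 for fibroblasts reached 1 CPM (summed 231 to 247 in NC and 271 to 284 in RAC3, mostly LUM), as did 2 of 5 for leukocytes (42.0 to 48.6 and 38.2 to 40.4, mostly CD14, with MS4A1 at 0) and 1 of 4 for endothelial cells (2.53 to 3.15 and 2.69 to 3.76). The part of these levels in the results below was not tested.

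The respiratory chain passes electrons from NADH and succinate through complexes I and II, ubiquinone, complex III, cytochrome c and complex IV to oxygen, and ATP synthase uses the proton gradient that complexes I, III and IV build. Mitochondrial DNA encodes core subunits of complexes I, III and IV and of ATP synthase, whereas complex II is wholly nuclear. Mitochondrial genes are transcribed as long polycistronic RNAs from both strands by the polymerase POLRMT with the factors TFAM and TFB2M. The RNAs are then cut, mostly at transfer RNAs, and most of the messages are polyadenylated. Hepatocytes are rich in mitochondria, and liver cancer cells often change the balance between respiration and glycolysis.

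Mature mitochondrial messages do not each stand for one protein. MT-ATP8 and MT-ATP6 share an RNA, as do MT-ND4L and MT-ND4, and their reading frames overlap. These stretches are shown because counts in them cannot be assigned to one gene of the pair. The sequences are from GRCh38, plus strand, from chrM:8507-8592 and chrM:10740-10786, with the bases in both genes in capitals (46 for the first pair and 7 for the second).
MT-ATP8 and MT-ATP6: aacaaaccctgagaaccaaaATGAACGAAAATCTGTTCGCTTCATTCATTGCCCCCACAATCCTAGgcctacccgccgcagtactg
MT-ND4L and MT-ND4: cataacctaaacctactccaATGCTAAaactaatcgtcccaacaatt
MT-ATP8 is 207 bases long, so the overlap makes up a large part of it. The library kit did not mark strands, so reads of MT-ND6, the only mitochondrial-encoded member on the minus strand (GRCh38 chrM:14149-14673), cannot be told from opposite-strand RNA of the same stretch. Nuclear copies of mitochondrial DNA and processed pseudogenes of the nuclear subunits can also share reads with these genes, and how the authors' counting treated them is not given in the sources used here.

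The mitochondrial-encoded genes as a group took a larger share of the counts in the RAC3 samples. They held 2.09%, 2.03% and 1.96% of all counts in NC samples 1, 2 and 3 and 2.42%, 2.39% and 2.28% in RAC3 samples 1, 2 and 3. The mean went from 2.03% ± 0.0661 to 2.36% ± 0.0725 (SD, n = 3 each), a difference of 0.338 percentage points, and the groups did not overlap. The 79 nuclear subunit genes with enough counts to test, together with those too low to test, held 0.763%, 0.762% and 0.785% in NC and 0.738%, 0.799% and 0.761% in RAC3 samples, and here the groups overlapped. Mitochondrial-encoded counts per nuclear subunit count were 2.74, 2.66 and 2.49 in NC and 3.28, 3.00 and 3.00 in RAC3 samples. All 3 RAC3 ratios lay above all 3 NC ratios, with means of 2.63 ± 0.127 and 3.09 ± 0.161 (SD, n = 3 each). With 3 samples against 3, no exact permutation test of such a value can give p under 0.10, and none was used.

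**Figure D1:**
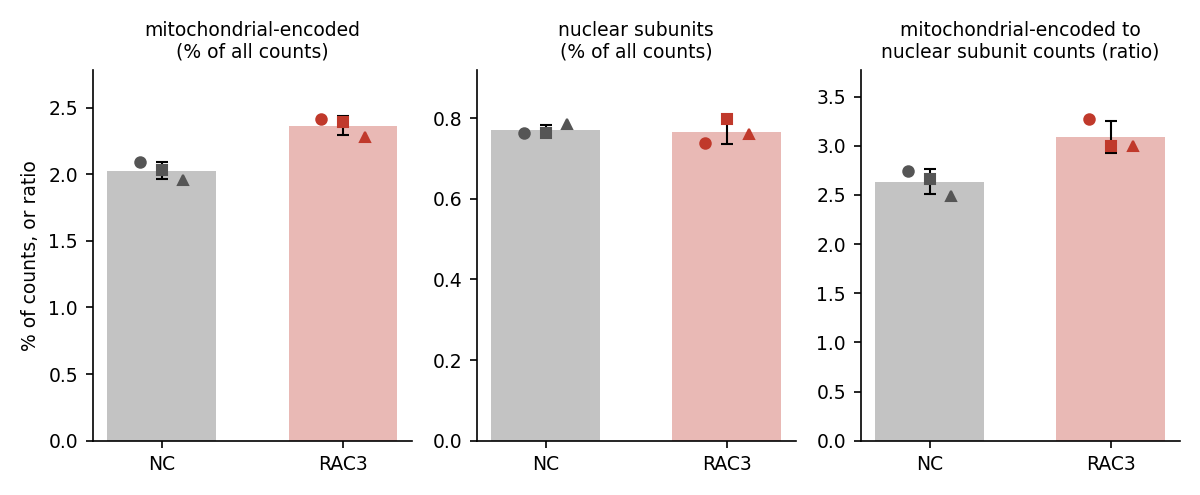
Summed counts of the 13 mitochondrial-encoded genes (percent of all counts, left), of the nuclear subunit genes (percent of all counts, middle) and their ratio (right) in NC and RAC3 samples. Bars are means, error bars SD and points the 3 samples of a group. The mitochondrial share (2.03% and 2.36%) and the ratio (2.63 and 3.09) do not overlap between groups, and the nuclear share does.

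Gene by gene, 8 of the 13 mitochondrial-encoded genes were higher with RAC3 overexpression at an adjusted p under 0.05 and 0 were lower. In the same test 13.3% of the 12941 genes tested were higher and 15.3% lower. The median log2 fold change of the 13 genes was 0.17, against 0.00 over all genes tested, and the 13 values ran from -0.08 to 0.53. In 7 of the 13 genes all RAC3 samples lay above all NC samples, which was so for 20.9% of all genes tested. The genes did not move by one common factor.

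MT-ND2, a core subunit of the membrane arm of complex I (GRCh38 chrM:4470-5511), had the largest difference among the 13. It had 1315, 1334 and 1278 normalized CPM in NC and 1960, 1894 and 1813 in RAC3 samples. The lowest RAC3 sample was well above the highest NC sample, and the difference was 0.53 on the log2 scale (standard error, SE, 0.0376, adjusted p = 1.2e-08). MT-ND1, the neighbouring complex I subunit that helps to form the ubiquinone site (chrM:3307-4262), had 837.3, 801.4 and 798.9 normalized CPM in NC and 1013, 1011 and 996.1 in RAC3 samples. Its groups also stood apart, with a log2 fold change of 0.31 (SE 0.0364, adjusted p = 5.2e-06). MT-ND4, another proton-pumping subunit of complex I, had 3139, 2969 and 2791 normalized CPM in NC and 3427, 3334 and 3229 in RAC3 samples. It was higher by 0.17 on the log2 scale (adjusted p = 0.0044), but the call was lost once each library's trend with GC content had been removed (0.09, adjusted p = 0.092).

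The remaining complex I genes of mitochondrial DNA did not pass the test. MT-ND5 had a log2 fold change of 0.05 (95% interval -0.04 to 0.15, adjusted p = 0.42) and MT-ND4L one of 0.05 (-0.07 to 0.17, adjusted p = 0.56). For MT-ND3 the value was -0.08 (-0.22 to 0.05, adjusted p = 0.35) and for MT-ND6 -0.08 (-0.18 to 0.03, adjusted p = 0.28). These intervals leave room for small differences in either direction and lie below the log2 fold changes of MT-ND1 and MT-ND2. After removal of the GC trend, MT-ND3 and MT-ND6 were lower, with log2 fold changes of -0.22 (adjusted p = 0.023) and -0.18 (adjusted p = 0.011), and MT-ND3 was lower also when RAC3 sample 2 was left out (-0.18, adjusted p = 0.035). That trend was fitted over all genes tested, where the correlation with GC content was -0.43, against 0.10 over the 13 mitochondrial-encoded genes. Whether it applies to these genes was not tested.

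MT-CYB, cytochrome b, is the only subunit of complex III in mitochondrial DNA (chrM:14747-15887). It had 1405, 1382 and 1334 normalized CPM in NC and 1615, 1634 and 1570 in RAC3 samples. The groups did not overlap and the log2 fold change came to 0.23 (SE 0.0359, adjusted p = 0.00012).

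The catalytic core of complex IV, which reduces oxygen to water, is made by MT-CO1, MT-CO2 and MT-CO3, and these differed among themselves. MT-CO3 had 2411, 2438 and 2377 normalized CPM in NC and 2673, 2905 and 2682 in RAC3 samples, with no overlap (log2 fold change 0.19, SE 0.0373, adjusted p = 0.00076). MT-CO1 had 4578, 4215 and 4063 in NC and 4847, 4721 and 4599 in RAC3 samples, so that its highest NC sample came close to its lowest RAC3 sample. Its log2 fold change of 0.14 (SE 0.0403, adjusted p = 0.013) lost the call after removal of the GC trend (0.10, adjusted p = 0.070) and without NC sample 2 or NC sample 3. MT-CO2 had 3459, 3327 and 3205 in NC and 3308, 3401 and 3143 in RAC3 samples. Its groups overlapped, with a log2 fold change of -0.02 (95% interval -0.10 to 0.06, adjusted p = 0.73) that turned to 0.04 when libraries were scaled by their size only.

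Both ATP synthase genes of mitochondrial DNA, which make parts of its proton channel and peripheral stalk, were higher. MT-ATP6 (chrM:8527-9207) had 1722, 1697 and 1640 normalized CPM in NC and 2059, 2113 and 1980 in RAC3 samples, with no overlap (log2 fold change 0.28, SE 0.0366, adjusted p = 1.4e-05). MT-ATP8 (chrM:8366-8572) had 53.0, 59.2 and 53.3 in NC and 70.2, 78.2 and 57.6 in RAC3 samples, and RAC3 sample 3 lay below NC sample 2. Its log2 fold change of 0.32 (SE 0.0843, adjusted p = 0.0077) lost the call after removal of the GC trend (0.18, adjusted p = 0.14) and without RAC3 sample 2. The bases shared with MT-ATP6 are the 46 in capitals above.

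**Figure D2:**
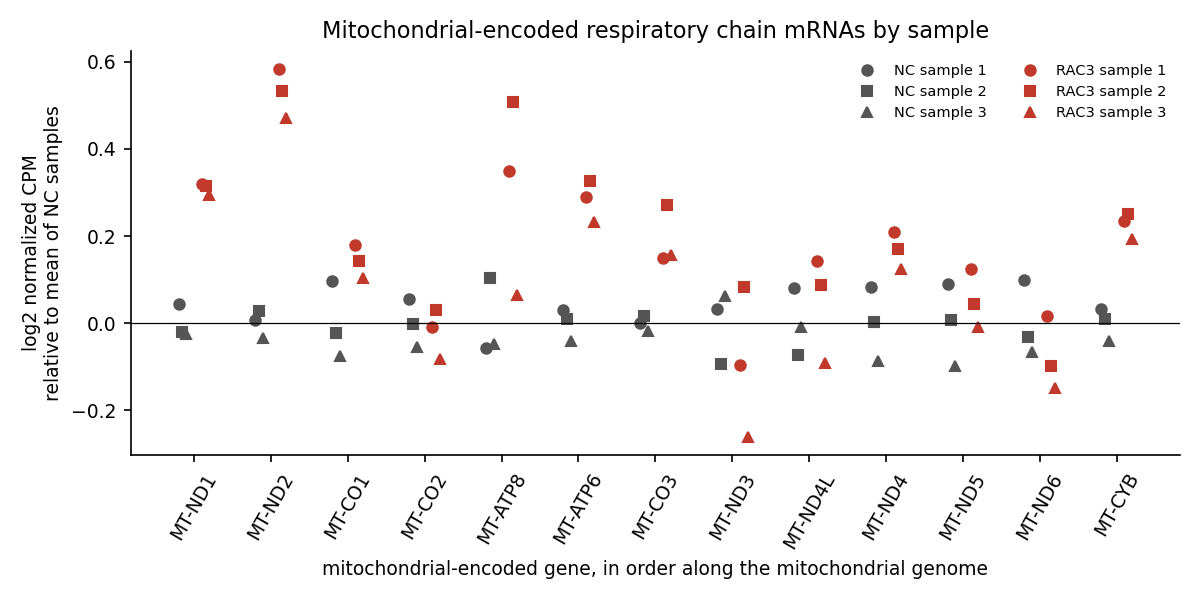
Log2 normalized CPM of the 13 mitochondrial-encoded genes relative to the NC mean of each gene, in the order of the genes on the mitochondrial map, with 3 NC and 3 RAC3 samples as points. RAC3 samples lie highest above NC at MT-ND2 (log2 fold change 0.53) and mix with NC samples at MT-CO2 (-0.02), MT-ND3 (-0.08), MT-ND4L (0.05), MT-ND5 (0.05), MT-ND6 (-0.08) and MT-ATP8 (0.32).

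Ratios between mitochondrial genes of one sample do not depend on library scaling. They were not corrected for the GC trend, and MT-ND2 has 43.0% GC, MT-ND1 47.7% and MT-CO2 46.2%. With that trend removed, MT-ND2 and MT-ND1 had log2 fold changes of 0.43 and 0.29, against 0.53 and 0.31 before. The ratio of MT-ND2 to MT-CO2 counts was 0.380, 0.401 and 0.399 in NC and 0.593, 0.557 and 0.577 in RAC3 samples, and MT-ND2 over MT-ND1 was 1.57, 1.67 and 1.60 against 1.93, 1.87 and 1.82. Both ratios were higher in each RAC3 sample than in any NC sample, although MT-ND1 and MT-ND2 lie side by side on the map. MT-ND2 made up 6.34% of the mitochondrial-encoded counts in NC and 8.14% in RAC3 samples (means, n = 3), and MT-ND1, MT-ATP6 and MT-CYB also took larger shares in every RAC3 sample than in every NC sample. MT-CO2 went from 16.1% to 14.2% of these counts, and MT-ND3, MT-ND5 and MT-ND6 took smaller shares without overlap. The shares of MT-CO1, MT-CO3, MT-ATP8, MT-ND4 and MT-ND4L overlapped between the groups. A ratio shows that genes changed unequally and does not say which of them changed.

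Per length, on the authors' FPKM scale (counts scaled for gene length and for library size), the order of the levels was led by complex IV. MT-CO2 had 4774 ± 148 FPKM in NC and 4896 ± 194 in RAC3 samples, MT-CO3 3013 ± 40.3 and 3581 ± 157, and MT-CO1 2724 ± 147 and 3123 ± 94.9 (mean ± SD, n = 3 each). MT-ATP6 followed with 2428 ± 46.8 and 3071 ± 98.6, then MT-ND4 with 2110 ± 109 and 2464 ± 83.1. MT-ND2 was at 1232 ± 25.9 in NC, just above MT-CYB at 1180 ± 24.0 and without overlap of their samples, and at 1849 ± 79.5 in RAC3 samples, where MT-CYB had 1436 ± 29.9. At the low end stood MT-ND3 (752.7 ± 42.0 in NC), MT-ND6 (627.7 ± 33.5), MT-ND4L (443.4 ± 20.8) and MT-ATP8 (261.3 ± 17.5). The median FPKM in NC was 1181 over the 13 mitochondrial-encoded genes and 80.6 over the nuclear subunits tested, and the FPKM lengths of all 13 equalled their full GENCODE gene lengths. The libraries hold RNA selected by its poly(A) tail. How evenly this captured the mitochondrial messages, MT-ND6 among them, and the nuclear ones was not tested.

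**Figure D3:**
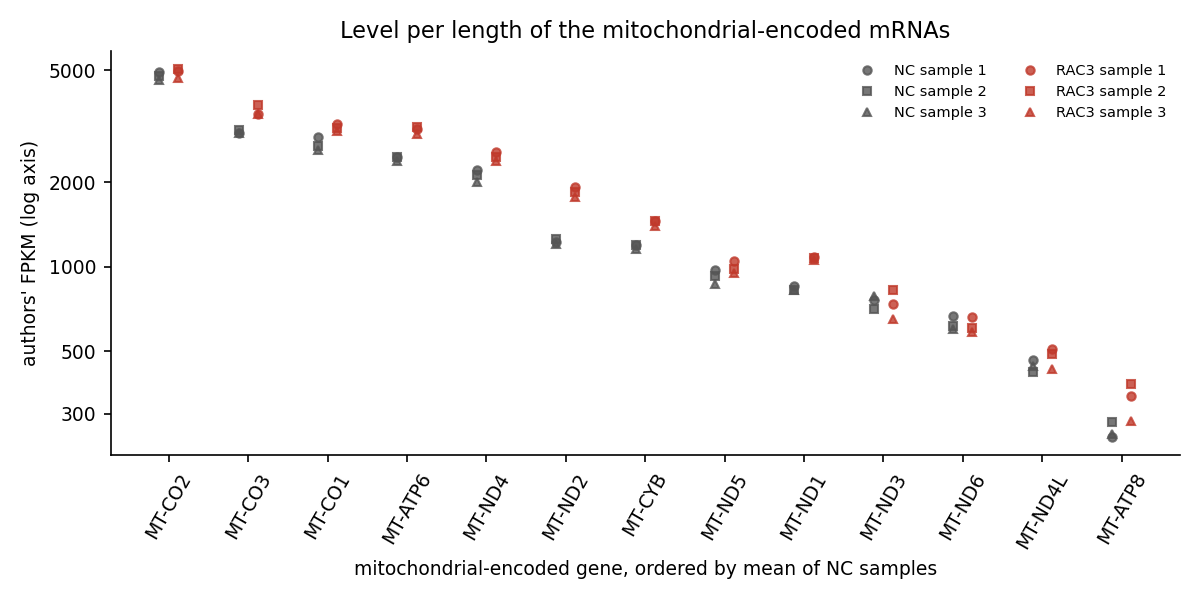
Authors' FPKM of the 13 mitochondrial-encoded genes on a log axis, with the 3 samples of each group as points. MT-CO2 is highest (4774 in NC and 4896 in RAC3, means) and MT-ATP8 lowest (261.3 and 338.2), and MT-ND2 goes from 1232 to 1849.

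Nuclear subunit genes had the opposite balance of calls under TMM scaling. Of the 79 tested, 2 were higher (2.53%, against 13.3% of all genes) and 14 were lower (17.7%, against 15.3%), whereas scaling by library size only gave 7 higher and 4 lower. Under TMM scaling the share that was lower was thus near that of all genes, and the share that was higher was below it. Of all 12941 genes tested, 3691 were called in either direction under TMM scaling and 3989 by library size only. How the 3989 split into higher and lower is not given here. The nuclear subunits had a median log2 fold change of -0.06 under TMM scaling, beside 0.0036 over all genes tested. By library size only these medians were -0.000330 and 0.0600, so all genes moved up with the subunits. In 6 genes all RAC3 samples lay above NC and in 17 all lay below (7.59% and 21.5%, against 20.9% and 21.6% of all genes tested). Left out singly, RAC3 sample 1 lowered the count of lower genes to 5, NC sample 1, NC sample 3 and RAC3 sample 3 each gave 8, NC sample 2 gave 12, and RAC3 sample 2 raised it to 19. The count of higher genes was 0 without NC sample 1 or RAC3 sample 2, 1 without NC sample 2 or RAC3 sample 3, and 3 without NC sample 3 or RAC3 sample 1. Over all genes tested these fits also called fewer genes in either direction, from 2630 (without RAC3 sample 1) to 3311 (without RAC3 sample 2), against 3691. Only SDHA, COX8A and ATP5MC2 were lower under all 19 alternatives, and neither gene that was higher kept its call in all of them. Scaling by library size only took the call from NDUFC2, NDUFV1, UQCRC1, COX4I1, NDUFB4, NDUFS8, COX5B, COX6A1, NDUFA13 and NDUFB8. NDUFC2 kept its call in 16 alternatives, NDUFB10 in 14, NDUFV1 and UQCRC1 in 13, and COX4I1, NDUFB4 and NDUFS8 in 12. COX5B, COX6A1 and NDUFA13 kept theirs in 10 and NDUFB8 in 8. Losses given below for single genes are not complete lists.

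**Figure D4:**
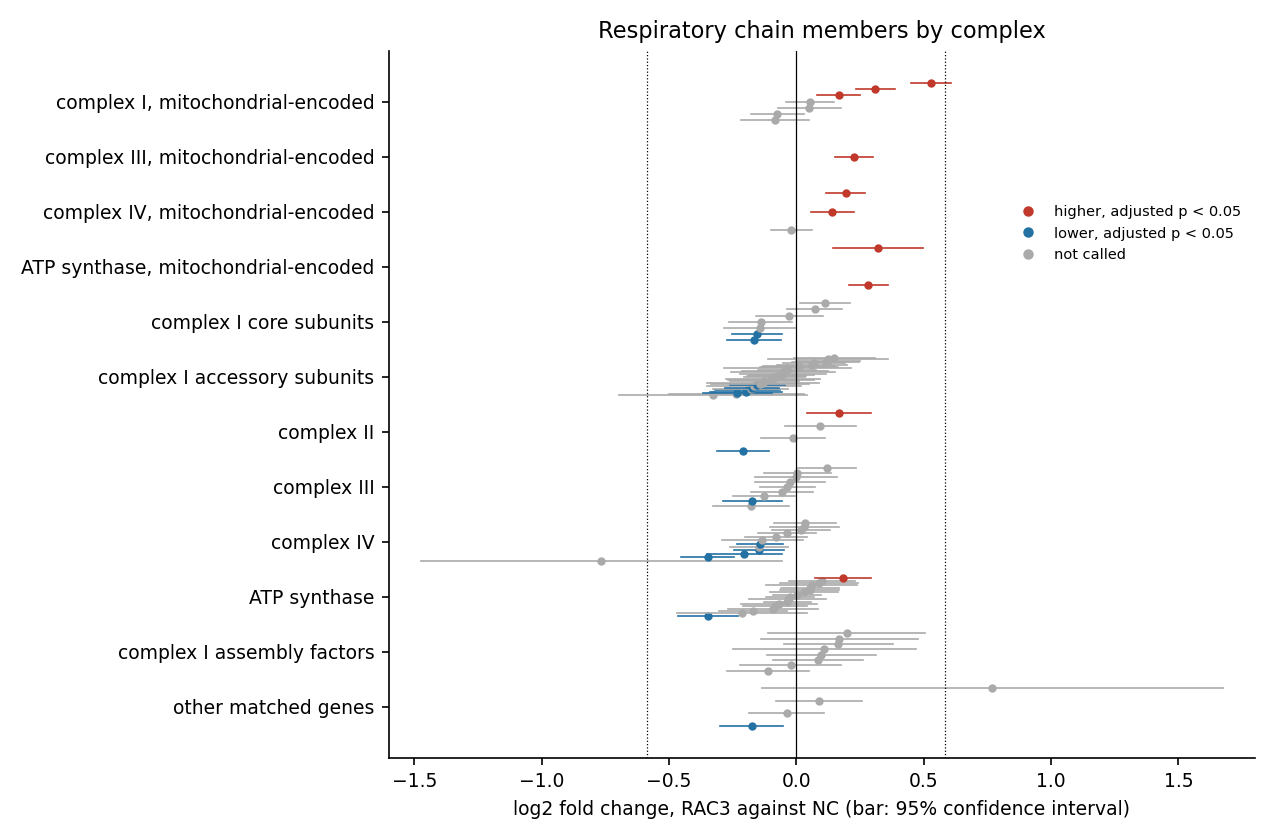
Log2 fold change (RAC3 against NC, TMM scaling) of each member tested, with 95% intervals, grouped by complex and by genome. Dotted lines mark a fold change of 1.5. Most mitochondrial-encoded genes lie above 0 (8 of 13 called higher), and 14 of 79 nuclear subunits are called lower and 2 higher. These nuclear counts become 4 and 7 when libraries are scaled by size only, which also moves the median of all genes tested from 0.0036 to 0.0600.

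Complex I takes electrons from NADH. Of its 7 nuclear core subunits, which carry the flavin and iron-sulfur clusters, 0 were higher and 2 lower (28.6%, median log2 fold change -0.14). Over all genes tested 13.3% were higher and 15.3% lower, and the counts of the complexes below stand beside these shares. NDUFV1, the flavin-binding subunit, had 338.7, 315.4 and 320.2 normalized CPM in NC and 275.9, 308.2 and 291.2 in RAC3 samples, without overlap (log2 fold change -0.15, adjusted p = 0.018). NDUFS8, an iron-sulfur subunit, had 196.9, 194.6 and 194.6 in NC and 160.6, 184.4 and 177.9 in RAC3 samples (-0.17, adjusted p = 0.020). With the GC trend removed, neither passed (NDUFV1 -0.0016, adjusted p = 0.98, and NDUFS8 0.03, adjusted p = 0.67). Both also lost their calls when libraries were scaled by size only and without RAC3 sample 1.

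The 30 accessory subunits of complex I surround that core. Of these, 5 were lower (16.7%, near the 15.3% of all genes tested), 0 higher and 25 not called, and the median was -0.08. NDUFB10 had 56.6, 52.0 and 57.7 normalized CPM in NC and 45.3, 49.4 and 47.0 in RAC3 samples (-0.23, adjusted p = 0.012), and lost its call with the GC trend removed (-0.08, adjusted p = 0.37) and without NC sample 3 or RAC3 sample 1. NDUFC2 had 121.5, 122.9 and 131.4 in NC and 108.8, 112.2 and 112.2 in RAC3 samples (-0.17, adjusted p = 0.014), and lost its call without NC sample 3 and when libraries were scaled by size only. Both stood apart between groups, whereas NDUFB4 overlapped (116.9, 103.9 and 117.1 against 99.4, 105.0 and 91.4, log2 fold change -0.19, adjusted p = 0.024) and lost its call without any one of NC samples 1 and 3 and RAC3 samples 1 and 3. NDUFB8 and NDUFA13 were the others called lower. None of the 8 assembly factors NDUFAF1 to NDUFAF8, which help to build complex I, passed the test, with log2 fold changes from -0.11 to 0.20.

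Complex II, succinate dehydrogenase, links the tricarboxylic acid (TCA) cycle to the chain, and 2 of its 4 genes moved in opposite directions. SDHA, its flavoprotein (GRCh38 chr5:218241-256700), had 158.2, 151.4 and 151.1 normalized CPM in NC and 126.2, 136.3 and 135.6 in RAC3 samples. Every RAC3 sample was below every NC sample (log2 fold change -0.21, SE 0.0491, adjusted p = 0.0033). SDHB, the iron-sulfur subunit, had 68.2, 77.1 and 77.5 in NC and 79.9, 83.9 and 86.8 in RAC3 samples, again without overlap (0.17, adjusted p = 0.046), and lost its call without any one of NC sample 1, NC sample 2, RAC3 sample 2 or RAC3 sample 3. Of the 9 nuclear complex III genes, only UQCRC1, a core protein of the matrix side, was called. It had 257.6, 228.2 and 223.5 in NC and 195.0, 215.1 and 218.3 in RAC3 samples (-0.17, adjusted p = 0.024), and this was -0.02 (adjusted p = 0.80) with the GC trend removed. The call was lost also by library size only, with the length trend removed, and without NC sample 1 or RAC3 sample 1.

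In complex IV, 12 of the 18 nuclear genes had enough counts to test, and 4 were lower (33.3%, against 15.3% of all genes tested) and 0 higher. COX8A, the smallest subunit in the form used by most tissues (GRCh38 chr11:63974607-63976543), had 120.4, 118.9 and 119.2 normalized CPM in NC and 93.7, 95.1 and 92.7 in RAC3 samples. The replicates of each group lay close together and far from the other group (119.5 ± 0.799 against 93.8 ± 1.23, SD, n = 3 each), with a log2 fold change of -0.35 (SE 0.0491, adjusted p = 3.5e-05). COX4I1, the main regulatory subunit, had 427.1, 404.9 and 410.6 in NC and 358.5, 392.8 and 374.9 in RAC3 samples (-0.14, adjusted p = 0.018). COX6A1 had 187.9, 180.6 and 182.5 in NC and 157.4, 170.8 and 169.0 in RAC3 samples (-0.15, adjusted p = 0.024). Both lost their calls without any one of NC sample 1, RAC3 sample 1 or RAC3 sample 3, and COX6A1 also with the GC trend removed (-0.08, adjusted p = 0.15) and with the replicate number as a block (-0.15, adjusted p = 0.054). COX5B was the other gene called lower.

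Complex IV has paired subunit forms for different tissues or oxygen levels. The heart and muscle forms COX6A2 and COX7A1 and the form COX4I2 had 0 counts in all 6 samples, which allows up to 0.165 to 0.217 CPM (3 counts) depending on the sample, for counting error only. The testis forms COX6B2 (0, 0 and 0 counts in NC and 1, 2 and 0 in RAC3 samples), COX7B2 (1 count in RAC3 sample 2) and COX8C (1 count in NC sample 3) were near 0. Of the widely used forms, COX7A2 (-0.08, 95% interval -0.20 to 0.04), COX6B1 (-0.04, -0.15 to 0.08) and NDUFA4 (0.02, -0.10 to 0.13) did not pass the test, and COX6B1 turned to 0.02 when libraries were scaled by size only. NDUFA4L2, the hypoxia-induced counterpart of NDUFA4, was the only member past the study's thresholds of a fold change over 1.5 and an unadjusted p under 0.05, which 4.68% of all genes tested passed (1.68% higher and 2.99% lower). It had only 27, 22 and 41 counts in NC and 16, 24 and 14 in RAC3 samples. In normalized CPM these were 1.93, 1.46 and 2.28 against 0.900, 1.46 and 0.992, so that the highest RAC3 sample and the lowest NC sample nearly touched. Its log2 fold change of -0.77 (95% interval -1.47 to -0.06) had an unadjusted p of 0.036 and an adjusted p of 0.099 in the edgeR fit, and without NC sample 3 or RAC3 sample 3 no member passed these thresholds. COX7A2L, which joins complexes III and IV in supercomplexes, was lower (71.5, 66.4 and 70.0 against 59.8, 64.0 and 60.3 normalized CPM, log2 fold change -0.18, adjusted p = 0.031), but not with the replicate number as a block (-0.18, adjusted p = 0.062) or without any one of NC samples 1 and 3 and RAC3 samples 1 and 3. Scaling by library size only also took its call.

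ATP synthase had 1 nuclear gene higher and 1 lower among 17 (5.88% each, against 13.3% higher and 15.3% lower over all genes tested). ATP5MC2, 1 of the genes for the rotating c-ring protein (GRCh38 chr12:53632726-53677408), had 124.3, 122.3 and 115.2 normalized CPM in NC and 92.1, 102.0 and 89.9 in RAC3 samples. The groups stood apart, with a log2 fold change of -0.35 (SE 0.0568, adjusted p = 0.00016). ATP5PB, the b subunit of the peripheral stalk, had 115.3, 124.2 and 128.9 in NC and 135.3, 145.8 and 137.5 in RAC3 samples, also without overlap (0.18, SE 0.0530, adjusted p = 0.014), but lost its call without NC sample 1 or RAC3 sample 2 and after removal of the GC trend (0.09, adjusted p = 0.20). ATP5IF1, the inhibitor of the enzyme's reverse reaction, had a log2 fold change of -0.04 (95% interval -0.19 to 0.11), and of 0.02 when libraries were scaled by size only. The retrocopy ATP5MGL had 0 counts in all samples, and UQCRHL had 1, 2 and 2 in NC and 5, 2 and 2 in RAC3 samples.

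Fold changes of the nuclear subunits went down with the GC content of their transcripts, as those of all genes did. Across the 79 nuclear subunits tested, the log2 fold change and the GC content of the longest transcript had a Pearson correlation of -0.51, and across 12863 genes with a value one of -0.43. Across the 13 mitochondrial-encoded genes it was 0.10. These genes come from the same 6 libraries and are not independent replicates. Of the 40 nuclear subunits with a GC content of at least 47.95%, 12 were lower and 1 higher, beside 25.6% lower and 3.98% higher among all genes of that range. Of the 39 below it, 2 were lower and 1 higher, beside 3.88% lower and 23.5% higher among all genes. The mitochondrial-encoded genes lie between 39.6% and 47.7% GC, and among the 4251 nuclear genes tested in that range 19.6% were higher and 4.94% lower, with a median log2 fold change of 0.09.

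With each library's GC trend removed, 5 mitochondrial-encoded genes were higher (MT-ND2, MT-ND1, MT-ATP6, MT-CYB and MT-CO3), 2 were lower (MT-ND3 and MT-ND6), and the median of the 13 was 0.10. MT-ND2 then had a log2 fold change of 0.43 (adjusted p = 1.7e-08) and MT-ND1 one of 0.29 (adjusted p = 2.0e-06). Of the 12863 genes with a GC value, 1258 were higher and 1381 lower in this fit. Among the nuclear subunits 1 was higher and 13 lower, but only 6 of the 14 genes lower before were among these 13. COX8A (-0.21, adjusted p = 0.0025), ATP5MC2 (-0.23, adjusted p = 0.0026) and SDHA (-0.12, adjusted p = 0.040) kept their calls. The 7 genes that were lower in this fit but not before were ATP5F1E, ATP5MG, COX6C, COX7A2, COX7C, NDUFB5 and UQCRB, with 38.3% (UQCRB) to 42.5% GC (ATP5MG). After this removal the Pearson correlation with GC content was -0.04 over all genes but 0.27 over the nuclear subunits and 0.30 over the mitochondrial-encoded genes. The trend was fitted over all genes, and removing it turned the sign for the nuclear subunits. Whether it holds for the members was not tested.

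**Figure D5:**
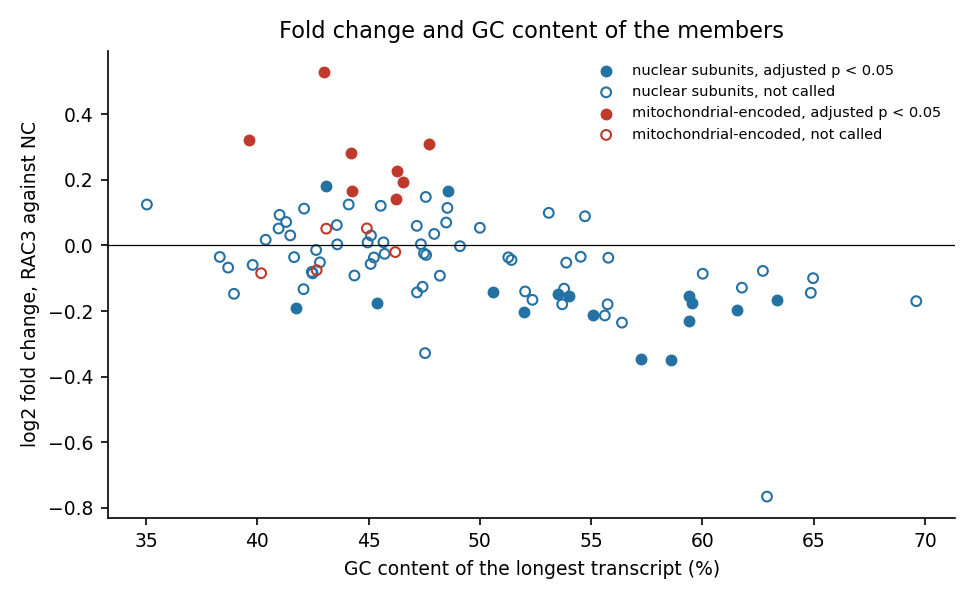
Log2 fold change (RAC3 against NC) against the GC content of the longest transcript for nuclear subunits and mitochondrial-encoded genes, with filled points for an adjusted p under 0.05. The nuclear values go down with GC content (Pearson correlation -0.51 over 79 genes), and MT-ND2 stands highest among the mitochondrial-encoded genes.

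Genes outside the chain that make, read or regulate it were described from 5 lists. Over all genes tested 13.3% were higher and 15.3% lower, and with the GC trend removed 1258 and 1381 of 12863. Of 29 tested genes for mitochondrial DNA transcription and RNA handling, 9 were higher and 2 lower (31.0% and 6.90%), with a median log2 fold change of 0.16, and with the GC trend removed 3 were higher and 0 lower. TFAM, which packages mitochondrial DNA and starts its transcription, had 51.3, 52.2 and 59.1 normalized CPM in NC and 76.9, 67.2 and 73.1 in RAC3 samples, with no overlap (0.41, SE 0.0679, adjusted p = 0.00016, and 0.25 with adjusted p = 0.0034 after removal of the GC trend). FASTKD5, which acts in the processing of mitochondrial messages without flanking transfer RNAs, was higher by 0.32 (adjusted p = 0.0019), and PNPT1, a mitochondrial RNA-degrading enzyme, by 0.27 (adjusted p = 0.0033, and 0.075 after removal of the GC trend). POLRMT, the mitochondrial RNA polymerase, had 71.2, 69.7 and 66.9 in NC and 52.5, 59.3 and 58.8 in RAC3 samples (-0.28, adjusted p = 0.0021), a difference that was -0.06 (adjusted p = 0.46) after removal of the GC trend. PTCD1, which acts on mitochondrial transfer and ribosomal RNA, was lower (log2 fold change -0.27, adjusted p = 0.044, and -0.15 with adjusted p = 0.30 after removal of the GC trend) and shares exons with the readthrough gene ATP5MF-PTCD1 (0.09, adjusted p = 0.45).

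In the other lists the shares called higher and lower were 6.25% and 12.5% (replication), 5.8% and 9.6% (assembly factors), 21.1% and 21.1% (regulators) and 8.6% and 8.6% (TCA cycle and carriers). Except for the regulators these lie below the 13.3% and 15.3% of all genes tested. Of 16 genes for mitochondrial DNA replication, 1 was higher (the nuclease MGME1, log2 fold change 0.20, adjusted p = 0.048) and 2 were lower (the topoisomerase TOP1MT, -0.34, adjusted p = 0.0036, and the polymerase POLG, -0.22, adjusted p = 0.012). With the GC trend removed none of these 3 passed (MGME1 0.14, adjusted p = 0.15, TOP1MT -0.21, adjusted p = 0.066, and POLG -0.06, adjusted p = 0.46), and the list held 1 higher and 0 lower. Of 52 assembly factors outside the rule, 3 were higher (HIGD1A 0.19, COA7 0.29 and DMAC1 0.41) and 5 lower, among them HIGD2A (-0.28), the membrane insertase OXA1L (-0.21) and SDHAF1 (-0.33). With the GC trend removed the list held 2 higher and 3 lower, and HIGD1A (0.02, adjusted p = 0.76), DMAC1 (0.28, adjusted p = 0.19) and SDHAF1 (-0.13, adjusted p = 0.37) no longer passed. Among 19 regulators of respiratory genes 4 were higher and 4 lower: MYC (0.46, adjusted p = 7.4e-06), the deacetylase SIRT1 (0.46) and GABPA (0.36), a subunit of an ETS-family factor, were higher, and the matrix protease LONP1 (-0.38, adjusted p = 1.1e-05), TFEB (-0.81) and the nuclear receptor ESRRA (-0.30) were lower. With the GC trend removed 2 were higher and 5 lower, and GABPA (0.18, adjusted p = 0.12) and ESRRA (-0.10, adjusted p = 0.35) no longer passed. TFEB was the only gene of these lists past the study's thresholds. Of 35 TCA cycle enzymes and electron carriers 3 were higher and 3 lower. IDH2, the mitochondrial NADP-dependent isocitrate dehydrogenase, had 391.8, 356.2 and 350.2 normalized CPM in NC and 239.8, 251.9 and 241.8 in RAC3 samples (-0.58, adjusted p = 4.7e-08), while CYCS, cytochrome c, had 262.1, 270.9 and 280.2 in NC and 313.3, 290.1 and 294.9 in RAC3 samples (0.14, adjusted p = 0.020). DLD (0.24) and PDHX (0.22), components of the pyruvate dehydrogenase complex, were also higher, and ETFB (-0.25) and COQ8A (-0.24) lower. With the GC trend removed 0 of the 35 were higher and 4 lower: CYCS (0.03, adjusted p = 0.62), DLD (0.09, adjusted p = 0.21) and PDHX (0.14, adjusted p = 0.20) lost their calls, and IDH2 (-0.48, adjusted p = 4.1e-08), ETFB (-0.26) and COQ8A (-0.18) kept theirs.

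Nuclear respiratory genes are known targets of NRF1, ETS-family factors, YY1 and estrogen-related receptors, so their promoters were searched for the corresponding letters. RefSeq promoters (GRCh38.p14, 250 bases before to 50 after the start) were matched for 64 of the 79 nuclear subunits tested. Matches on either strand were counted. The NRF1 motif was searched as GCGC, then any base, then TGCGC. The capitals in the TFAM promoter below match it as written, and those in the SDHA promoter match it on the opposite strand. The NRF1 motif was held by 25.0% of the matched promoters, beside 11.7% over all genes tested and 6.29% of the 27305 promoters in the table. CCGGAAG (ETS) was held by 31.3%, 19.3% and 10.7%, the YY1 motif by 10.9%, 2.79% and 1.28%, TNAAGGTCA (estrogen-related receptors) by 3.13%, 0.517% and 0.963%, and TGACGTCA (the cAMP response element) by 7.81%, 3.28% and 1.98%. None of them was found in 39.1%, 67.3% and 81.1%. Of the 13 promoters of genes called lower, 3 held the NRF1 letters and 5 the ETS letters, against 13 and 14 of the 49 promoters of genes not called. These matches describe letters and not bound sites.

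The 120 bases before the start are shown for the 3 nuclear subunit genes that were lower under all alternatives and for TFAM and POLRMT, as examples with and without these motifs, with the NRF1 and ETS matches in capitals (a match on the opposite strand reads as its reverse complement, and adjoining NRF1 matches can overlap). The windows are chr5:218200-218319 for SDHA, chr11:63974500-63974619 for COX8A and chr10:58385290-58385409 for TFAM on the plus strand, and chr12:53676084-53676203 for ATP5MC2 and chr19:633538-633657 for POLRMT on the minus strand.
SDHA: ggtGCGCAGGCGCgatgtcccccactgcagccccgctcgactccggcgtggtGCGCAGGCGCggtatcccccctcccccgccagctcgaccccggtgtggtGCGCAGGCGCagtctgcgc
COX8A: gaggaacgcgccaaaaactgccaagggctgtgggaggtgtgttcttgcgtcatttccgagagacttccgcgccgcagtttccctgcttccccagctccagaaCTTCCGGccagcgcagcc
ATP5MC2: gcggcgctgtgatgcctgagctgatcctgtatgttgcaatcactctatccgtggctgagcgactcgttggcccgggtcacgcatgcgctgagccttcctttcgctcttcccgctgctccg
TFAM: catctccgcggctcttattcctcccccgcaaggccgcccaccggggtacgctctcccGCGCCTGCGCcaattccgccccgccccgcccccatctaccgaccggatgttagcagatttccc
POLRMT: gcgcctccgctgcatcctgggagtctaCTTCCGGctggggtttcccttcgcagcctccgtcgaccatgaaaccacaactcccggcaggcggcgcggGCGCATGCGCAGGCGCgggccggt
SDHA, lower in RAC3 samples, held 3 NRF1 matches here, COX8A 1 ETS match and ATP5MC2 none. The whole ATP5MC2 window lies inside the GENCODE span of that gene (chr12:53632726-53677408), so the bases before the outer start of the span were not searched. TFAM, which was higher, and POLRMT, which was lower under TMM scaling, both held NRF1 matches.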

How the data were processed

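The authors selected polyadenylated RNA with oligo(dT), made NEBNext Ultra libraries and sequenced them on an Illumina NovaSeq. Deposited were unnormalized counts for each gene in each sample, the authors' FPKM values and their mean FPKM per group, which was not used. The submitters' processing notes name Bowtie2 2.2.8, HISAT2, StringTie 1.3.1 and DESeq2 without roles. The genome build, annotation and counting tool are not given in the sources used here. Samples were grouped by title.

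The count model was edgeR 4.0.16 (R 4.3.3): filterByExpr left 12941 genes, TMM scaled the libraries, and RAC3 was compared with NC by the two-sided quasi-likelihood F test with Benjamini-Hochberg adjustment over these genes and no covariate. The biological coefficient of variation was 0.0533. The steps were tested on simulated data. Positions, transcript lengths and GC content came from GENCODE release 29 (GRCh38), in which 20113 of the 20332 identifiers were found. The GC and length trends were removed per library by lowess with a span of 0.3. No pair of replicates differed by as little as the counting noise (chi-square per degree of freedom 2.56 to 5.93).

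The members and the 5 background lists were chosen with earlier results of these data known. Named genes were all mitochondrial-encoded members, members past the study's thresholds, the paralog pairs of complex IV with ATP5IF1, and, per complex and per list, up to 3 genes in each direction with the smallest adjusted p under 0.05 (members needed 50 counts per sample on average). Genes named only as called or lost, the readthrough genes and the gene copies were named after their values were seen. The alternatives were other scalings, filters and tests (DESeq2 1.42.0, limma-voom of limma 3.58.1), a term for the replicate number, the trends above and leaving out each sample. The GC and length trends were first computed with the longest transcript of each gene. After those results had been seen, they were computed again with the transcript whose length is nearest the one behind the FPKM.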

Additional observations from a re-analysis of the deposited data

How the results depend on the processing

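The mitochondrial-encoded median was above 0 and the share of counts was higher in RAC3 samples in all alternatives run, and the count of mitochondrial-encoded genes that were higher stayed at 7 or 8 except with the GC trend removed. Scaling by library size only gave 7 nuclear subunits higher, 4 lower and 2 members past the study's thresholds. The medians were then 0.22 (mitochondrial-encoded), -0.000330 (nuclear) and 0.0600 (all genes tested). Under TMM scaling they were 0.17, -0.06 and 0.0036, so these medians moved up together and the nuclear one stayed below that of all genes. Members past the thresholds were 2 without the filter on low counts, 2 with limma-voom and 0 with DESeq2, where 1 nuclear subunit was higher. With the GC trend removed, 5 mitochondrial-encoded genes were higher and 2 lower (median 0.10), 1 nuclear subunit was higher and 0 members passed the thresholds. With the length-matched transcript, chosen after the results had been seen, these were 5, 2, 0.0913, 0 and 0. With the length trend removed, 6 nuclear subunits were higher and 5 lower, 2 members passed the thresholds and the mitochondrial median was 0.23, and with the length-matched transcript 5 were higher, 6 lower and the median was 0.21. The difference in mitochondrial share was 0.738 points of summed FPKM and 0.252 points from normalized CPM. The causes were not tested.

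Leaving out each sample gave 7 to 8 mitochondrial-encoded genes higher and 0 to 1 lower, 0 to 3 nuclear subunits higher and 5 to 19 lower, 0 to 1 members past the thresholds, medians of 0.12 to 0.19 and -0.11 to -0.04, and a difference in share of 0.304 to 0.380 points. Over all genes tested 2630 to 3311 were called in these fits, against 3691 with all samples.

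Same-numbered samples showed no shared deviation from their group means, with correlations of -0.136, -0.0656 and -0.0178 over 10169 genes. These values cannot settle whether the samples were prepared in pairs. With the number as a replicate block, 1 nuclear subunit was higher (SDHB lost its call), 12 were lower (COX6A1 and NDUFB8 lost theirs), COX7A2L lost its call, 2 members passed the thresholds, and all 8 mitochondrial-encoded calls remained.

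Among named genes without a stable sign, log2 fold changes were 0.0181 (library size), 0.0146 (length), 0.0252 (length-matched length) and -0.0948 to 0.0367 (a sample left out) for ATP5IF1. For COX6B1 they were 0.0187 (library size), 0.0629 (GC), 0.0409 (length), 0.0233 (length-matched GC) and 0.0246 (length-matched length). For MT-CO2 they were 0.0365 (library size), 0.0587 (length), 0.0367 (length-matched length) and -0.0524 to 0.0103 (a sample left out). MT-ND4L had -0.0411 (GC) and -0.0493 (length-matched GC), MT-ND5 -0.0102, -0.0186 and, with a sample left out, -0.00120 to 0.0945, and MT-ND6 0.00971 (length). NDUFA4 had -0.115 (GC), -0.121 (length-matched GC) and -0.0305 to 0.0398 (a sample left out), NDUFS8 0.0281 (GC) and 0.0265 (length-matched GC), and NDUFV1 0.00648 (length-matched GC). Low counts limit NDUFA4L2 and the tissue-specific forms.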
